A study of Drosophila melanogaster with 34 samples.

Results

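The genes described here are the cytochrome P450 genes of the CYP3 clan of *Drosophila melanogaster*, that is, the families Cyp6, Cyp9, Cyp28, Cyp308, Cyp309, Cyp310 and Cyp317. They were taken by name from a fixed list of 37 genes. Of these, 36 were matched by gene identifier among the 16495 genes of the count table, and *Cyp6a21* was not analysed here. The 36 genes comprised 22 of family Cyp6, 5 of Cyp9, 4 of Cyp28, 2 of Cyp309 and 1 each of Cyp308, Cyp310 and Cyp317. A further 50 P450 genes in the table belonged to other families.

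P450 enzymes are haem proteins of the endoplasmic reticulum or the mitochondria that insert an oxygen atom into small molecules. Those of the endoplasmic reticulum receive electrons from NADPH-cytochrome P450 reductase. In insects, the CYP3 clan holds many of the enzymes that act on insecticides and plant toxins, and several of its genes are induced by foreign compounds in the midgut, fat body and Malpighian tubules. A few members act on the fly's own hormones, such as *Cyp6t3*, which takes part in ecdysone synthesis.

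RNA was sequenced from whole mated females of 6 inbred strains collected in Europe, at 20 females per library. GIM-012, MUN-008 and MUN-020 had been classed as copper tolerant (resistant in the labels) and AKA-018, COR-018 and JUT-008 as copper sensitive. Treated females received 20 mM CuSO4 in 5% sucrose for 24 h and control females sucrose without copper, at an age of 3 to 7 days in the labels. Each strain and treatment had 3 libraries, except the controls of MUN-020 and AKA-018 with 2, for 34 libraries in all. Every strain is an inbred wild-derived line, so a class is represented by 3 genotypes, and dead flies, which occurred in JUT-008 and COR-018, were taken out before extraction, so those copper libraries hold survivors. Reads were mapped to the reference strain, and sequence or copy number differences of these strains at the P450 genes were not analysed, so a low level cannot be told apart from reads that did not map uniquely.

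Libraries held from 22796637 to 42567920 counts, with a median of 35393968. All 5 metallothionein genes, the classical copper-induced genes, rose in both classes and in each strain, so the treated libraries carried the sign of copper exposure. Transcripts of male accessory glands, which females lack, were measured by the 5 of 17 listed genes that were matched in the table. These transcripts summed to over 1 CPM (read counts scaled to a common library size by TMM factors) in 9 libraries, all of sensitive strains. They reached 51.6 to 66.3 CPM in the AKA-018 controls, against at most 0.0945 CPM in its copper libraries, and stayed at or below 0.13 CPM in every tolerant library. Because whole females were used, fewer cells of a type and less RNA per cell cannot be told apart in any value below.

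The CYP3 clan genes were expressed at widely different levels in control flies. Per kilobase of annotated exon, *Cyp6g1*, known for its part in resistance to DDT and neonicotinoids, had the highest mean level over strains, at 877 CPM per kb. It was followed by *Cyp6d5* at 214, *Cyp6a19* at 117, *Cyp9f2* at 101, *Cyp6w1* at 76.6 and *Cyp9b2* at 63.9 CPM per kb. At the other end, 5 genes had a mean below 5 CPM: *Cyp28c1*, *Cyp308a1*, *Cyp310a1*, *Cyp28d2* and *Cyp6a16*. All 36 passed the filter on low counts in every comparison, and the lowest single count was 5, for *Cyp28c1*. In each group *Cyp6g1* made up between 35.9% and 55.1% of the summed CPM of the 36 genes, as a mean over its libraries.

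**Figure D1:**
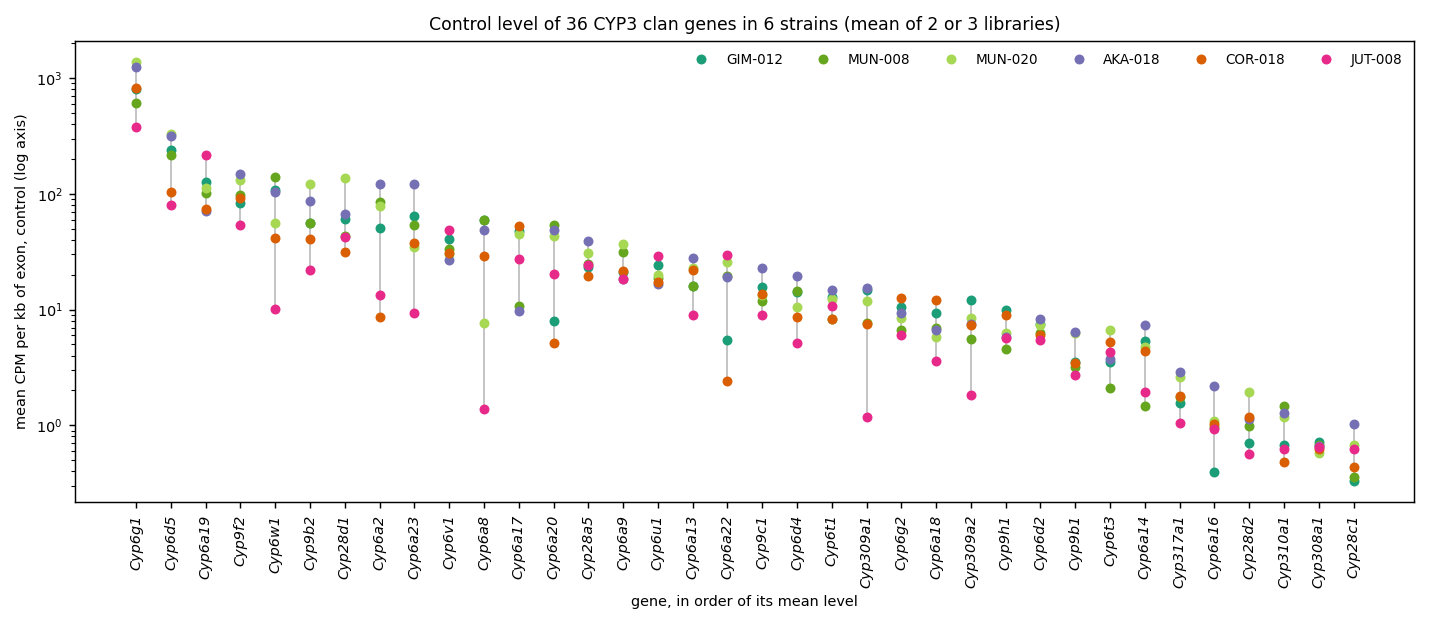
Control level of each of the 36 genes in mean CPM per kb of exon (log axis), with 1 point per strain, the mean of 2 or 3 control libraries, and a grey line from the lowest to the highest strain. *Cyp6g1* lies above all other genes in each strain, and the pink points of JUT-008 are the lowest for 18 genes.

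The first comparison asked how far the strains differed before any copper. Control levels differed among the 6 strains for 34 of the 36 genes, against 63.3% of all genes tested (edgeR quasi-likelihood F test with 5 degrees of freedom, adjusted p below 0.05 and over 1.5-fold between the highest and lowest strain). The 2 genes not called were *Cyp308a1* and *Cyp6d2*. A difference of over 4-fold was found for 14 genes, against 14.9% of all genes, and of over 8-fold for 7, against 8.53%. The median range between strains was 1.72 on the log2 scale for the 36 genes and 1.00 for all genes tested.

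*Cyp6a8*, a gene with high expression in some DDT-resistant strains, had the largest range. Its control libraries gave 130, 97.3 and 90.3 CPM in GIM-012, 75.1, 62.8 and 180 CPM in MUN-008, and 77.8 and 97.5 CPM in AKA-018. They gave 64, 31 and 61.6 CPM in COR-018, 15 and 12.5 CPM in MUN-020, and 2.71, 2.49 and 2.25 CPM in JUT-008. The libraries of the 3 highest strains overlapped each other, while MUN-020 and then JUT-008 stood apart below them. The mean of GIM-012 was 42.6-fold that of JUT-008, and the difference among strains had an adjusted p of 8.5e-06 in the edgeR F test.

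*Cyp6w1*, another gene linked to DDT resistance, gave 264, 349 and 385 CPM in MUN-008, 243, 267 and 267 CPM in GIM-012, and 225 and 274 CPM in AKA-018. It gave 124 and 144 CPM in MUN-020, 118, 66.8 and 115 CPM in COR-018, and 28.4, 27.6 and 16.4 CPM in JUT-008. JUT-008 was again apart from every other strain, while GIM-012 overlapped both MUN-008 and AKA-018. The highest mean was 13.8-fold the lowest (edgeR adjusted p = 3.3e-06).

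*Cyp6a2*, whose product metabolises several insecticides, separated the strains differently. Its control libraries held 182 and 225 CPM in AKA-018, 116, 146 and 170 CPM in MUN-008, 133 and 132 CPM in MUN-020 and 88.4, 98.1 and 67.8 CPM in GIM-012. They held 25.8, 26.7 and 15 CPM in JUT-008 and 19.1, 9.45 and 14.8 CPM in COR-018. COR-018 and JUT-008 overlapped, and both lay below the other 4 strains. AKA-018 exceeded COR-018 by 14.1-fold (edgeR adjusted p = 2.4e-06), although both are copper sensitive; *Cyp6a2* overlaps the gene *Epac* on the same strand.

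The neighbours *Cyp309a1* and *Cyp309a2* lie within 10.6 kb on chromosome arm 2L, and JUT-008 was lowest for both. For *Cyp309a1*, JUT-008 gave 2.16, 3.04 and 1.94 CPM, and the other control libraries ranged from 10.6 CPM in COR-018 to 35.2 CPM in GIM-012. For *Cyp309a2*, JUT-008 gave 3.57, 3.48 and 3.15 CPM, and the other control libraries ranged from 8.93 to 25.1 CPM. The highest strain mean was 13.0-fold the lowest for *Cyp309a1* (AKA-018 over JUT-008, edgeR adjusted p = 1.9e-06). It was 6.55-fold the lowest for *Cyp309a2* (GIM-012 over JUT-008, edgeR adjusted p = 1.5e-05).

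Position was not used to choose the genes, and 21 of the 36 lie on chromosome arm 2R, 7 on 2L and 4 each on 3R and X. With neighbours joined at gaps of up to 20 kb, they formed 6 clusters of at least 2 analysed genes. The largest spanned 31.7 kb at 2R:14871366-14903095 (BDGP6, dm6) and held, in order, *Cyp6a22*, *Cyp6a17*, *Cyp6a23*, *Cyp6a19*, *Cyp6a9*, *Cyp6a20*, *Cyp6a8* and *Cyp317a1*. Neighbours in this cluster did not share an order of strains. *Cyp6a22* was highest in JUT-008, with 60.9, 61.7 and 70.8 CPM, and lowest in COR-018, with 4.5, 7.15 and 3.98 CPM. *Cyp6a17*, which bears on temperature preference, was highest in COR-018, with 103, 84.8 and 87.8 CPM, and lowest in AKA-018, with 19 and 14.4 CPM.

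The next gene along, *Cyp6a23*, was highest in AKA-018, with 211 and 215 CPM, and lowest in JUT-008, with 17.1, 17.7 and 14.7 CPM. *Cyp6a19* was highest in JUT-008, with 398, 391 and 462 CPM, while *Cyp6a9*, which overlaps it on the opposite strand, was highest in MUN-020 at a mean of 73.1 CPM. *Cyp6a20*, known for an effect on male aggression, was highest in MUN-008, with 81.8, 117 and 94.1 CPM, and lowest in COR-018, with 11, 9.43 and 7.58 CPM. The highest strain mean was 12.4-fold the lowest for *Cyp6a22*, 12.9-fold for *Cyp6a23* and 10.5-fold for *Cyp6a20*, and in these 3 genes the libraries of both extreme strains did not overlap. Genes of this cluster are close relatives, and the counting discarded reads that mapped to more than 1 place, so reads they share were lost.

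**Figure D2:**
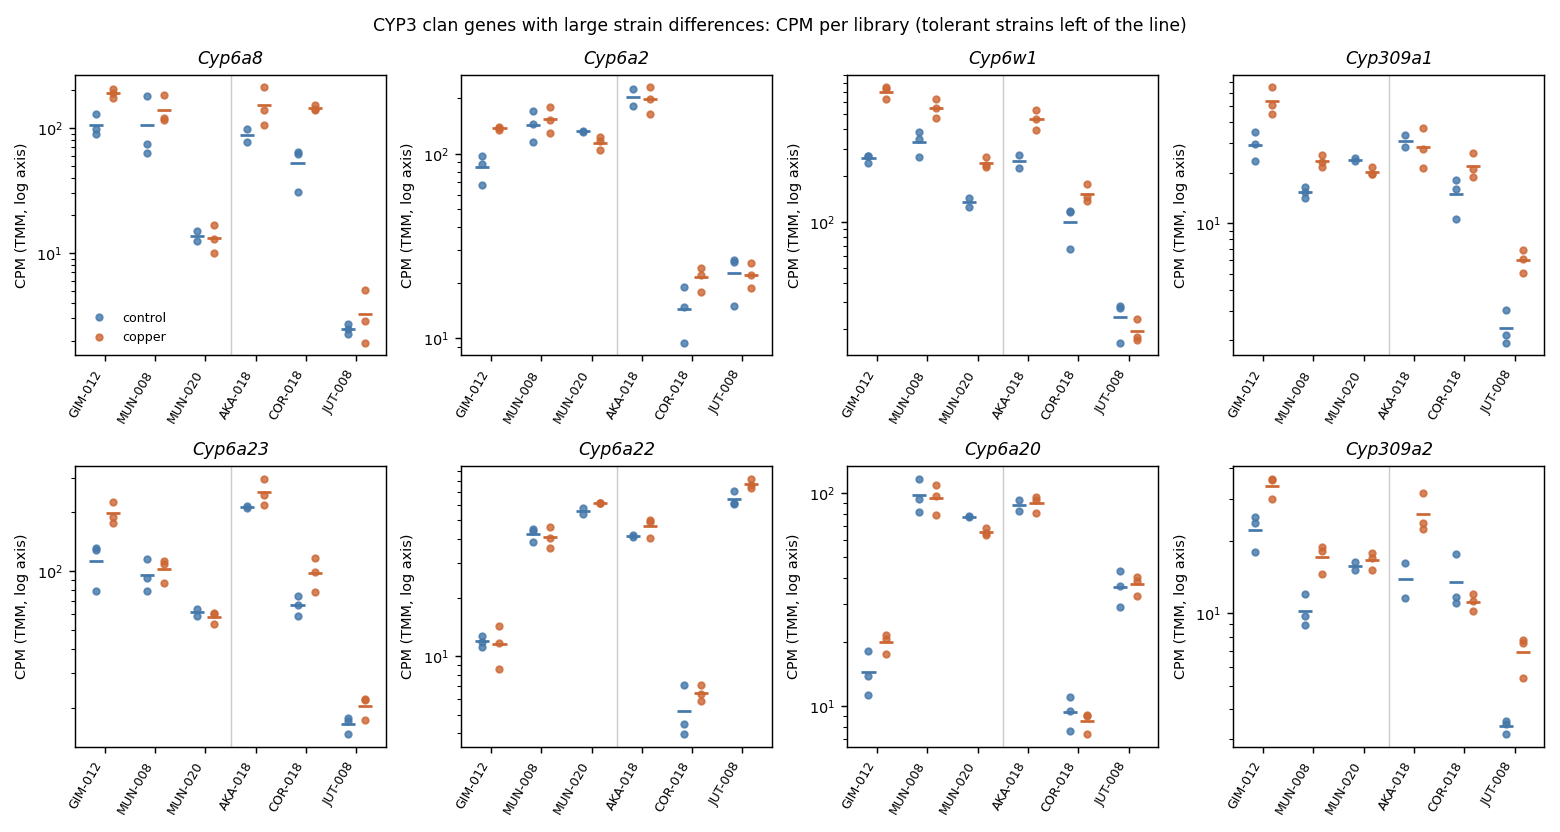
CPM (log axis) of the 8 genes with the largest range among control strains, with 1 point per library, blue for control and orange for copper, and a bar at the mean of each group of 2 or 3 libraries. JUT-008 lies lowest for *Cyp6a8*, *Cyp6w1*, *Cyp309a1*, *Cyp6a23* and *Cyp309a2* but highest for *Cyp6a22*.

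Across the 36 genes, JUT-008 had the lowest control mean for 18, against 28.7% of all genes tested, and lay below every other control library for 12, against 12.7%. AKA-018 had the highest mean for 15, against 22.6% of all genes, and lay above every other control library for 11, against 7.29%. The abundance of tissue markers also differed among the control strains: 5 ovary markers summed to a mean of 2482 CPM in GIM-012 and 2289 CPM in JUT-008, against 906 CPM in MUN-020 and 813 CPM in AKA-018. The sum of 6 fat body markers, including the yolk proteins *Yp1*, *Yp2* and *Yp3*, ran from 8709 CPM in GIM-012 and 9594 in JUT-008 to 17528 in AKA-018 and 31211 in MUN-020. Their part in the strain differences was not tested. Leaving out the control libraries that carried male transcripts drops AKA-018 and leaves JUT-008 with control replicate 3 alone. The count of calls in that fit is not given here.

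The strain differences did not separate the classes. No gene differed between tolerant and sensitive strains in controls at an adjusted p below 0.05 and over 1.5-fold, against 5.36% of all genes tested, 0.409% higher and 4.95% lower in tolerant strains; DESeq2 also called 0, and 5 of the 36 had an unadjusted p below 0.05 in edgeR. The smallest adjusted p was that of *Cyp6a9*, which was higher in tolerant strains by 0.54 ± 0.15 (SE) on the log2 scale (edgeR adjusted p = 0.042) and missed the fold threshold. In 0 of the 36 did all 3 strain means of a class lie above those of the other, against 8.61% of all genes. The count of 0 depended on AKA-018, and the share of all genes called without it is not given here. Without AKA-018, *Cyp6a2*, *Cyp6d4*, *Cyp6d5*, *Cyp6w1* and *Cyp9b2* were called higher in tolerant strains. Without the control libraries that carried male transcripts, which also drops AKA-018 and leaves 1 control of JUT-008, *Cyp6a2* and *Cyp6d5* were.

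After copper, the response was asked for first in each class. In the tolerant strains 1 of the 36 genes was called, *Cyp6w1*, which was higher; over all genes 1.53% were called, 1.02% higher and 0.509% lower (edgeR quasi-likelihood test, adjusted p below 0.05 and over 1.5-fold). Its copper libraries gave 734, 751 and 630 CPM in GIM-012, 549, 632 and 473 CPM in MUN-008 and 234, 227 and 264 CPM in MUN-020. In each of the 3 strains every copper library lay above every control library. The log2 fold change was 1.02 ± 0.12 (SE; edgeR adjusted p = 5.3e-05). Leaving out any library kept the adjusted p between 2.0e-05 and 0.00018, and without GIM-012 the log2 fold change was 0.80. With libraries summed per strain 0 genes were called, and 0 of all genes tested were.

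Of the other 35 genes in the tolerant strains, *Cyp28d1* (log2 fold change 0.50 ± 0.12, edgeR adjusted p = 0.035) and *Cyp309a2* (0.51 ± 0.11, edgeR adjusted p = 0.016) passed the p threshold but not that of 1.5-fold. The median of the 36 log2 fold changes was 0.17, with 28 above 0, and the median of all genes tested was -0.00.

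In the sensitive strains 4 genes were called, 3 higher and 1 lower, against 7.75% of all genes tested, 1.81% higher and 5.94% lower. *Cyp6a8* had the largest change, with copper values of 139, 143 and 154 CPM in COR-018, 105, 140 and 211 CPM in AKA-018 and 5.03, 1.92 and 2.87 CPM in JUT-008. Copper and control libraries did not overlap in COR-018 and AKA-018 but did so in the strain with the lowest level, JUT-008. The log2 fold change was 0.98 ± 0.22 (SE; edgeR adjusted p = 0.0057).

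*Cyp28a5* gave 93.4, 80.4 and 109 CPM after copper in AKA-018, 80.4, 64 and 66.6 CPM in COR-018 and 69.1, 45.5 and 74.9 CPM in JUT-008. The corresponding controls were 68.2 and 69.9 CPM, 43.7, 25.3 and 35.2 CPM, and 41.8, 46.1 and 40.4 CPM, so that only JUT-008 showed an overlap. The log2 fold change was 0.69 ± 0.13 (SE; edgeR adjusted p = 0.0019).

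*Cyp309a1* rose by 0.59 ± 0.20 (SE; edgeR adjusted p = 0.044), close to both thresholds and lost as a call in 12 of 17 fits with 1 library removed, with 6.12, 5.06 and 6.96 CPM after copper in JUT-008 and 26.1, 18.8 and 21.1 CPM in COR-018. In AKA-018 its copper libraries, at 27.6, 21.2 and 37.1 CPM, enclosed the controls at 28.5 and 33.4 CPM. *Cyp6a16*, expressed at a low level, fell by 0.64 ± 0.16 (SE; edgeR adjusted p = 0.0093). Its copper values were 4.1, 3.53 and 4.63 CPM against 5.11 and 5.73 in AKA-018, and 2.09, 1.29 and 1.08 CPM against 2.76, 2.49 and 2.43 in COR-018. In JUT-008 they were 1.51, 1.45 and 1.34 CPM against 3.12, 2.35 and 1.5, with overlap there.

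Among the rest, *Cyp6a17*, *Cyp6a23* and *Cyp6t3* were higher and *Cyp6d5* and *Cyp6g2* were lower at an adjusted p below 0.05 but under 1.5-fold. *Cyp6w1*, the gene called in the tolerant strains, had a log2 fold change of 0.38 ± 0.19 here (SE, edgeR adjusted p = 0.15). The 4 calls became 2 without COR-018 copper replicate 4 or without JUT-008 control replicate 1, and 1 without COR-018, which was then *Cyp309a2*. Without JUT-008 there were 3, *Cyp28a5*, *Cyp6a8* and *Cyp6w1*, all higher. Leaving out the 9 libraries with male transcripts removes both AKA-018 controls, and AKA-018 was then dropped whole. The 5 libraries left, with 1 copper library each in COR-018 and JUT-008, gave 0 calls among the 36 and 66 among all genes, a fit too small to bear on these calls. Without AKA-018 alone, 5 of the 36 were called. For the fits that left out 1 library or 1 strain, the share of all genes called is not given here. With libraries summed per strain 0 of the 36 and 0 of all genes were called.

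**Figure D3:**
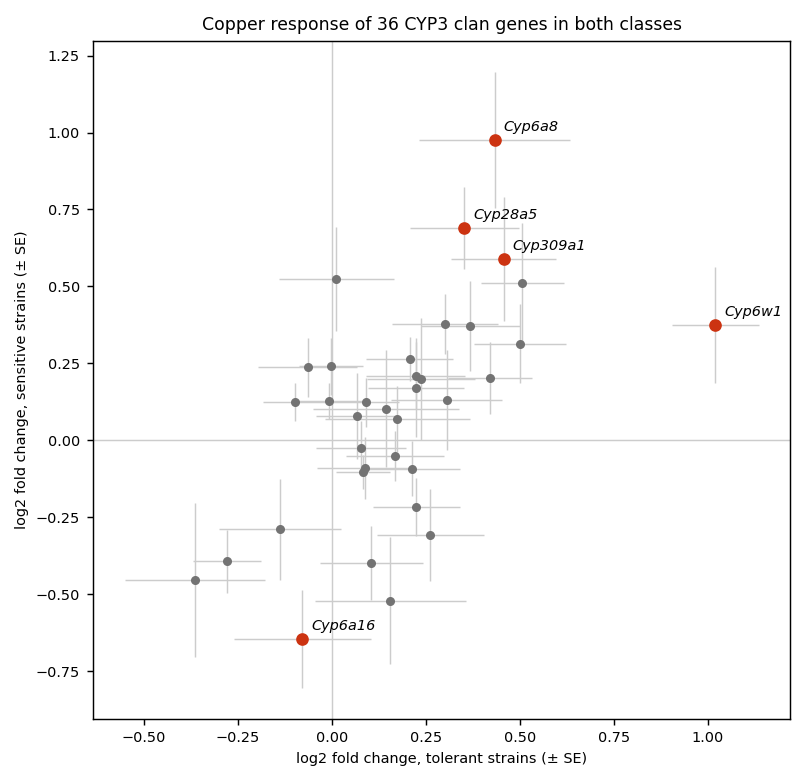
Log2 fold change after copper in sensitive strains (vertical) against tolerant strains (horizontal) for the 36 genes, with bars of ± 1 SE from edgeR; red points are the 5 genes called in a class. *Cyp6w1* lies furthest right at 1.02 and *Cyp6a8* highest at 0.98.

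The difference between the class responses was then tested directly. None of the 36 was called in the class by treatment interaction at an adjusted p below 0.05, against 4.13% of all genes. Of all genes, 3.41% were called with the more positive log2 fold change in tolerant and 0.719% in sensitive strains. Among the 36, 9 had an unadjusted p below 0.05 in edgeR, and DESeq2 called *Cyp6w1* and *Cyp9f2*. Separate class fits gave *Cyp6w1* log2 fold changes of 1.02 in tolerant and 0.38 in sensitive strains. The interaction put the difference at 0.66 ± 0.23 (SE, edgeR adjusted p = 0.099). In the same order, *Cyp9f2* gave 0.22 and -0.22, a difference of 0.45 ± 0.16 (edgeR adjusted p = 0.10). *Cyp6a18* gave 0.26 and -0.31, a difference of 0.58 ± 0.22 (edgeR adjusted p = 0.12). *Cyp6d5* gave 0.11 and -0.40, a difference of 0.52 ± 0.19 (edgeR adjusted p = 0.12). *Cyp6a16* gave -0.08 and -0.64, a difference of 0.58 ± 0.24 (edgeR adjusted p = 0.17). Of these, *Cyp9f2*, *Cyp6d5* and *Cyp6a16* had strain responses that did not overlap between classes, as did *Cyp6u1* and *Cyp28c1*, 5 genes in all against 11.3% of all genes. The nearest tolerant and sensitive strains lay close: -0.012 in MUN-020 and -0.017 in AKA-018 for *Cyp9f2*, and -0.29 and -0.33 for *Cyp6d5*. MUN-008 and AKA-018 gave -0.38 and -0.41 for *Cyp6a16*, 0.05 and 0.07 for *Cyp6u1*, and -0.12 and -0.24 for *Cyp28c1*. For a single gene the exact permutation test over 3 against 3 strains cannot go below a two-sided p of 0.1. These 5 reached that value, as any gene without overlap does. The count of 0 rose to 3 without AKA-018, 2 without MUN-020 and 1 without MUN-008, and to 1 without COR-018 control replicate 2, MUN-008 control replicate 4 or AKA-018 control replicate 3. The share of all genes called in these fits is not given here.

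The response was then asked for in each strain alone. In all, 12 of the 36 genes were called in at least 1 strain, against 19.1% of the genes tested in all 6 strains, with 9 in GIM-012, 4 in COR-018, 3 in AKA-018 and 1 each in MUN-008, MUN-020 and JUT-008. All 9 calls in GIM-012 were higher after copper, against 5.62% of all genes called there, 3.47% higher and 2.15% lower. The log2 fold changes in GIM-012 were 1.43 ± 0.13 for *Cyp6w1*, 0.98 ± 0.17 for *Cyp28d1*, 0.94 ± 0.18 for *Cyp28a5*, 0.85 ± 0.19 for *Cyp309a1* and 0.82 ± 0.17 for *Cyp6a8*. They were 0.78 ± 0.16 for *Cyp6d2*, 0.74 ± 0.17 for *Cyp6g1*, 0.69 ± 0.15 for *Cyp6a2* and 0.64 ± 0.14 for *Cyp6a17* (± SE; edgeR adjusted p from 0.0048 to 0.045 over the 9).

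*Cyp6g1*, the most abundant of them, went from 1555, 2042 and 1443 CPM in GIM-012 controls to 2958, 2714 and 2783 CPM after copper. *Cyp28d1*, linked to nicotine resistance, went from 82, 123 and 89.7 to 202, 194 and 190 CPM. In both, the copper libraries lay above all controls. Over the 36 genes the median log2 fold change in GIM-012 was 0.63, with 30 above 0, against a median of 0.07 for all genes tested. Their summed CPM rose from 3776, 4403 and 3409 in the controls to 6750, 6152 and 5980 after copper.

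GIM-012 also changed in its tissue markers. Its ovary markers went from a mean of 2482 to 1094 CPM, with *osk* and *bcd* called lower. Its fat body markers went from 8709 to 14760 CPM with 0 of 6 called, and its midgut markers from 3342 to 4314 CPM with *Amy-p* and *LManII* called higher. In the other 5 strains the midgut sum was lower after copper. The part of these marker changes in the P450 responses of GIM-012 was not tested. The calls in GIM-012 also rested on single libraries: 0 of the 36 were called without control replicate 1 or without control replicate 4, where 9 of all genes were called, and 1 without copper replicate 2. There were 14 without control replicate 2 and 18 without copper replicate 1, and DESeq2 called 19. For these larger counts the share of all genes called is not given here.

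**Figure D4:**
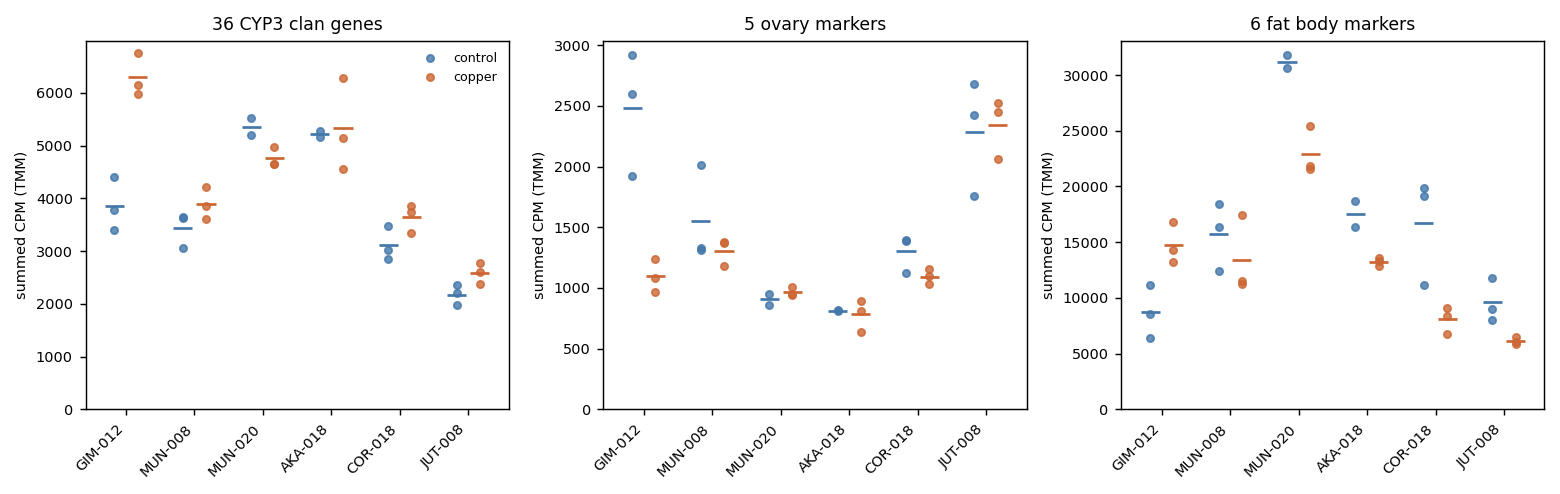
Summed CPM per library of the 36 CYP3 clan genes, of 5 ovary markers and of 6 fat body markers, with 1 point per library, blue for control and orange for copper, and a bar at the group mean. In GIM-012 the P450 sum rose to 5980 to 6750 while the ovary marker mean went from 2482 to 1094.

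In COR-018 the 4 calls were higher, against 10.4% of all genes called, 2.2% higher and 8.17% lower: *Cyp6a8* by 1.49 ± 0.27, *Cyp28a5* by 1.04 ± 0.20, *Cyp6d2* by 0.90 ± 0.23 and *Cyp6d4* by 0.67 ± 0.15 (log2 ± SE; edgeR adjusted p from 0.015 to 0.035). The count was 0 without copper replicate 1 or copper replicate 4, 1 without copper replicate 3 and 2 without control replicate 1. For these fits the share of all genes called is not given here. In AKA-018, where 6.43% of all genes were called, 0.953% higher and 5.47% lower, *Cyp309a2* (0.90 ± 0.21) and *Cyp6w1* (0.90 ± 0.16) were higher and *Cyp6g2* (-0.78 ± 0.16) was lower, with edgeR adjusted p from 0.0074 to 0.034. None of these 3 was called when either of the 2 AKA-018 controls, both of which carried male transcripts, was left out. *Cyp6g2*, which is expressed in the corpora allata, the gland that makes juvenile hormone, went from 18 and 19 CPM to 10.1, 10.2 and 12.1 CPM there.

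In the remaining strains a single gene was called. It was *Cyp309a1* in MUN-008 (0.62 ± 0.12, edgeR adjusted p = 0.046; 1.14% of all genes called, 0.445% higher and 0.696% lower) and in JUT-008 (1.33 ± 0.27, edgeR adjusted p = 0.041; 4.11% of all genes called, 0.998% higher and 3.11% lower). In MUN-020 it was *Cyp6w1* (0.89 ± 0.10, edgeR adjusted p = 0.0048; 4.22% of all genes called, 1.98% higher and 2.24% lower). The call of *Cyp309a1* in JUT-008 was lost whichever of its 6 libraries was left out, and that in MUN-008 for each of its libraries but control replicate 4. The call in MUN-020 was lost without control replicate 1. Over the 36 genes MUN-020 had 24 log2 fold changes below 0 with a median of -0.09, and its summed CPM went from 5193 and 5530 to 4646, 4657 and 4967. In AKA-018 the copper sums, from 4557 to 6284 CPM, enclosed the controls.

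**Figure D5:**
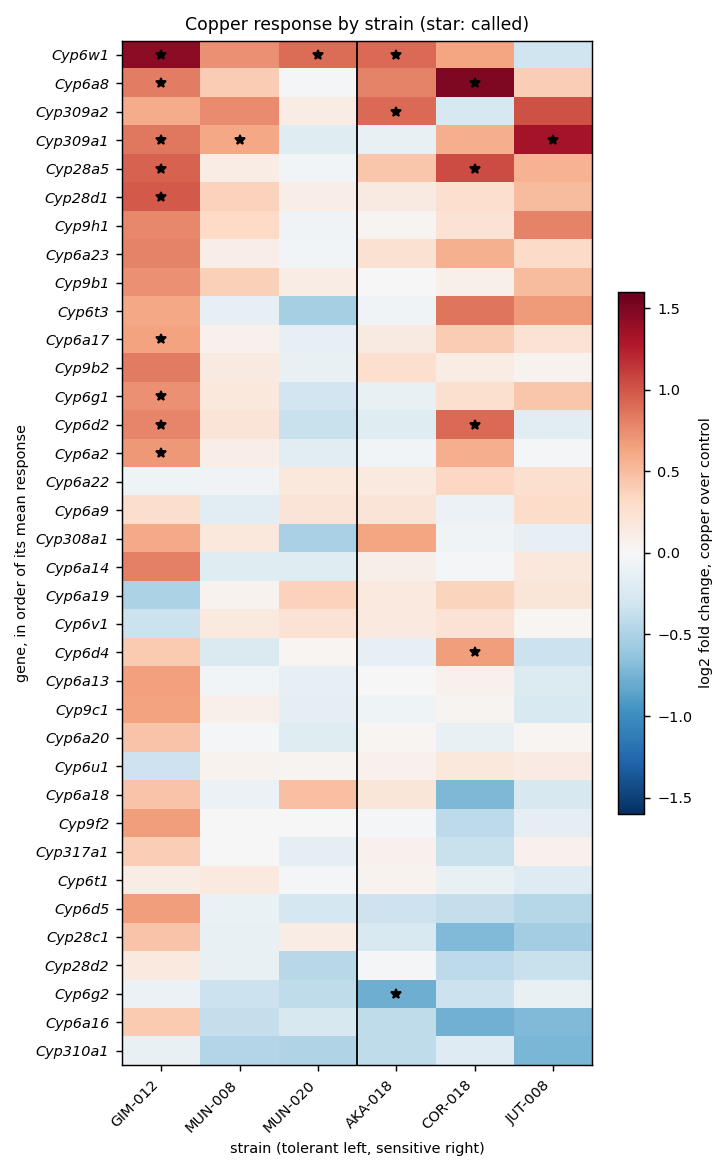
Log2 fold change after copper of each gene (rows, in order of the mean over strains) in each strain (columns, tolerant left of the line), red for higher and blue for lower, with a star where the gene was called in that strain. The GIM-012 column is red for 30 of the 36 genes and holds 9 stars.

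The strains differed in their copper response for 15 of the 36 genes, against 30.1% of all genes tested (edgeR F test of the strain by treatment interaction, 5 degrees of freedom, 34 libraries). The median range of responses among strains was 0.96 on the log2 scale for the 36 and 0.80 for all genes. *Cyp6w1* had the smallest adjusted p, 0.0024, with a range of 1.80: its log2 fold change ran from 1.43 in GIM-012 through 0.90 in AKA-018, 0.89 in MUN-020, 0.73 in MUN-008 and 0.63 in COR-018 to -0.32 in JUT-008. In JUT-008 it gave 23.3, 17.1 and 17.7 CPM after copper, which overlapped the controls; in the other 5 strains copper libraries lay above all controls. *Cyp309a1* (adjusted p = 0.0031) ran from 1.33 in JUT-008 to -0.20 in MUN-020, where 23.4 and 24.4 CPM became 21.6, 19.7 and 19.6 CPM.

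*Cyp309a2* (edgeR adjusted p = 0.0044) shared the high response in JUT-008, at 7.57, 5.4 and 7.76 CPM after copper, and differed from its neighbour in AKA-018, where 11.6 and 16.2 CPM became 22.5, 23.7 and 31.6 CPM. *Cyp6d4* (edgeR adjusted p = 0.0032) rose in COR-018 from 15.9, 13.4 and 18.7 to 28.7, 22.4 and 24.2 CPM, while in JUT-008 it went from 9.56, 10.4 and 9.03 to 8.56, 6.81 and 7.64 CPM. *Cyp6t3*, the ecdysone gene, had an adjusted p of 0.0033. It gave 15.3, 16.2 and 16.1 CPM after copper in COR-018 against 8.26, 6.11 and 12.2 in controls, and 6.1, 8.58 and 8.02 CPM in MUN-020 against 11.8 and 10.7. The sign of its change differed between COR-018 and MUN-020, and neither strain's change was called alone.

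The other 10 genes called in this test were *Cyp6g1*, *Cyp6d2*, *Cyp9f2*, *Cyp28a5*, *Cyp6a17*, *Cyp6d5*, *Cyp6a13*, *Cyp9c1*, *Cyp6a18* and *Cyp9h1*, with ranges from 0.87 to 1.31 on the log2 scale. The count depended on GIM-012: without it 4 genes were called, against 6.11% of all genes, and *Cyp6w1* had an adjusted p of 0.074. Without AKA-018 there were 16, against 34.4%.

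Few genes kept a sign over all 6 strains. *Cyp9b1* and *Cyp28d1* had a log2 fold change above 0 in each strain, against 3.84% of all genes, from 0.00 to 0.73 for *Cyp9b1* and from 0.11 to 0.98 for *Cyp28d1*. *Cyp6g2* and *Cyp310a1* were below 0 in each, against 4.09%, from -0.78 to -0.10 for *Cyp6g2* and from -0.73 to -0.12 for *Cyp310a1*. Only *Cyp28d1* in GIM-012 and *Cyp6g2* in AKA-018 passed the test in a single strain. The 16 genes called in no class, no strain and neither interaction were *Cyp6a9*, *Cyp6a14*, *Cyp6a19*, *Cyp6a20*, *Cyp6a22*, *Cyp6a23*, *Cyp6t1*, *Cyp6u1*, *Cyp6v1*, *Cyp9b1*, *Cyp9b2*, *Cyp28c1*, *Cyp28d2*, *Cyp308a1*, *Cyp310a1* and *Cyp317a1*.

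Genes that work with these enzymes were counted in the same way. Of the 3 electron partners, *Cpr* (the P450 reductase), *Cyt-b5* and *Cyt-b5-r*, 0 were called in either class, with 1 at an unadjusted p below 0.05 in each class in edgeR and 0 called by DESeq2. The log2 fold change of *Cpr* was 0.11 ± 0.07 in tolerant strains (SE, edgeR adjusted p = 0.64). In sensitive strains *Cpr* fell by under 1.5-fold, at -0.19 ± 0.05 (SE, edgeR adjusted p = 0.0098). Its difference between classes, 0.31 ± 0.09, was called in the class by treatment interaction (SE, edgeR adjusted p = 0.040). *Cyt-b5-r* was higher after copper in GIM-012 by 0.81 ± 0.15 (SE; edgeR adjusted p = 0.034). Of 8 regulators of P450 genes (*cnc*, *Keap1*, *maf-S*, *Hr96*, *ss*, *tgo*, *Met* and *gce*), 0 were called in either class, with 0 at an unadjusted p below 0.05 in edgeR and 0 called by DESeq2. Of 7 measured genes of haem synthesis and breakdown, 0 were called in either class, with 1 at an unadjusted p below 0.05 in tolerant and 0 in sensitive strains in edgeR and 0 called by DESeq2. The strain by treatment interaction called 3 of 3 partners, 3 of 8 regulators and 3 of 7 haem genes, against 30.1% of all genes. In single strains edgeR called 0 regulators. In MUN-020, 4 of 8 regulators had an unadjusted p below 0.05 in edgeR, against 33.3% of all genes. DESeq2 called 2 regulators in GIM-012, where its share of all genes is not given here.

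Of the P450 genes of other families, 47 were tested in the sensitive strains, and 3 were called higher and 11 lower. The shares of all genes there were 1.81% higher and 5.94% lower, and the CYP3 clan had 3 higher and 1 lower of 36. In the tolerant strains 2 of 46 were called higher and 0 lower, where 1.02% and 0.509% of all genes were. The class by treatment interaction called 12 of 47, where 4.13% of all genes and 0 of the 36 were called. For all 12, the tolerant strains had the more positive log2 fold change. That sign alone does not tell which class changed more, since a deeper fall in sensitive strains gives it too. Whether the families differ was not tested. In the sensitive strains 6 of 8 midgut markers and 3 of 6 fat body markers were called lower after copper, and their part in either set of P450 genes was not tested.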

How the data were processed

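RNA-seq libraries of whole females were analysed from a table of raw read counts per gene that the authors deposited. The authors ran the nf-core RNA-seq pipeline with FastQC 0.11.8, Trim Galore 0.5.0, cutadapt 1.18, STAR 2.6 on the dm6 genome and reverse-stranded counting by featureCounts 1.6.2, which discarded multi-mapping reads and those over several features and kept duplicates. The table's name refers to a removal of males that the methods do not describe.

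The deposited counts were normalised by TMM and tested with edgeR 4.0.16 (R 4.3.3) quasi-likelihood models on all genes passing filterByExpr by strain and treatment, with Benjamini-Hochberg adjustment over all genes tested. Class responses were fitted with strain as a covariate in the libraries of each class, the class interaction and the F test of strain by treatment in all 34 libraries, and basal differences in the 16 controls. A gene was called at an adjusted p below 0.05 and a fold change over 1.5, with no fold threshold for interactions. SE is the absolute log2 fold change divided by the square root of F. Libraries of a strain share its genotype, so p-values over libraries do not measure the spread between strains of a class. Levels are TMM CPM, per kb of exon from the Ensembl BDGP6 annotation, and means with SD are not repeated where each library is given. All 32 pairs of replicate libraries differed by more than sampling noise (chi-square per degree of freedom from 8.7 to 274).

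The genes and lists were chosen with earlier results of these data known. Values, though not always per library, were given for genes called in a class and for the 5 of lowest adjusted p in each interaction. They were also given for the 8 with the largest range among control strains and the 6 of highest level per kb. The same holds for *Cyp6w1*, *Cyp6a8* and *Cyp6g1*, which the study names. Calls in single strains were added. Of the fixed lists, 2 haem genes, 1 fat body, 2 ovary and 12 of 17 accessory gland markers were not matched in the table and were not analysed here. The scripts were tested on simulated counts. Alternatives were other normalisations and filters, DESeq2 1.42.0, leaving out libraries or strains, sums per strain, a joint fit and a replicate block. Same-numbered libraries did not deviate together (2 of 15 pairs with a correlation over 0.1, median -0.1), so numbers were not taken as pairs. Of 7 Malpighian tubule markers, 1 was called lower in each class; this list holds *tin*, a heart gene.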

Additional observations from a re-analysis of the deposited data

Results flagged for a closer look

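The copper response differed among the 6 strains, by the F test of the strain by treatment interaction itself (edgeR, 34 libraries), for 15 of the 36 CYP3 clan genes, against 30.1% of all genes tested. The difference between the highest and the lowest signed log2 fold change of the strains was 1.80 for *Cyp6w1* (adjusted p = 0.0024), 1.58 for *Cyp309a1* (adjusted p = 0.0031) and 1.00 for *Cyp6d4* (adjusted p = 0.0032). It was 1.44 for *Cyp6t3* (adjusted p = 0.0033), 1.27 for *Cyp309a2* (adjusted p = 0.0044) and 1.14 for *Cyp6g1* (adjusted p = 0.0048). The same range was 1.31 for *Cyp6d2* (adjusted p = 0.0059), 1.14 for *Cyp9f2* (adjusted p = 0.0065) and 1.12 for *Cyp28a5* (adjusted p = 0.011). In the next genes it came to 0.87 for *Cyp6a17* (adjusted p = 0.011), 1.18 for *Cyp6d5* (adjusted p = 0.011) and 0.92 for *Cyp6a13* (adjusted p = 0.016). It reached 0.94 for *Cyp9c1* (adjusted p = 0.026), 1.24 for *Cyp6a18* (adjusted p = 0.03) and 0.92 for *Cyp9h1* (adjusted p = 0.046). Without GIM-012, an alternative added after seeing the data, 4 of the 36 were called, against 6.11% of all genes.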

How the results depend on the processing

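With 1 library left out, 580 values of named genes kept their side of the threshold, 80 lost the call and 3 gained it. Under the other alternatives the numbers were 334, 36 and 7. None of the log2 fold changes changed direction, while the ranges of the F tests among strains have no sign and could not. When 1 library at a time was left out, the count of genes called ran from 2 to 5 in the sensitive strains, 1 to 1 in the tolerant strains, 0 to 1 in the class interaction, 9 to 20 in the strain interaction, 0 to 1 between classes in controls and 33 to 34 among control strains. For single strains it ran from 0 to 18 in GIM-012, 0 to 3 in MUN-008, 0 to 1 in MUN-020, 0 to 3 in AKA-018, 0 to 6 in COR-018 and 0 to 2 in JUT-008. With the replicate block the counts were 2 in the sensitive strains, 0 in MUN-008, 2 in MUN-020, 0 in JUT-008 and 3 in the strain interaction; the block changed no other count by over 1.5 times. With libraries summed per strain 0 genes were called in either class. Without a fold threshold there were 3 in tolerant strains, 9 in sensitive strains, 5 in MUN-020, 8 in COR-018 and 1 between classes in controls. DESeq2 called 2 in the class interaction, 19 in GIM-012, 3 in MUN-008, 7 in COR-018 and 3 in JUT-008, and the joint fit 20 in GIM-012, 0 in MUN-020, 7 in COR-018 and 4 in JUT-008. Library size alone gave 2 in MUN-008 and 2 in JUT-008, and RLE factors 2 in JUT-008. With no count filter MUN-008 had 3, and with at least 10 counts in every library AKA-018 had 1, COR-018 7 and JUT-008 2. Leaving out strains, the tolerant count was 4 without MUN-020 and the sensitive count 1 without COR-018. The class interaction had 1 without MUN-008, 2 without MUN-020 and 3 without AKA-018. The count between classes in controls was 1 without GIM-012, COR-018 or JUT-008 and 5 without AKA-018. In alternatives chosen after seeing the data, leaving out libraries with male transcripts, which drops AKA-018, gave 0 in sensitive strains (5 libraries left) and 2 between classes in controls, and the strain interaction had 4 without GIM-012. Library size alone shifted the median of all genes in GIM-012 by -0.12 on the log2 scale, with 30 of the 36 genes still above 0. The cause of these changes was not tested, apart from fewer libraries in fits that left some out. Shares of all genes called in these alternatives are not given in this section. The lowest level genes rest on few counts, down to 5 for *Cyp28c1*.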
